A study of Homo sapiens with 18 samples.

Results

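The genes described here stand for the nuclear-encoded subunits of the mitochondrial respiratory chain and ATP synthase. They were taken by symbol: NDUFA, NDUFB, NDUFC, NDUFS and NDUFV genes for complex I, SDHA to SDHD for complex II, UQCR genes for complex III, COX4 to COX8 genes for complex IV and ATP5 genes for complex V. Assembly factors with NDUFAF symbols, pseudogenes and antisense genes were left out. For a gene with several rows, the row with the highest mean was used. This gave 79 of 18404 genes with a row of their own: 34 of complex I, 3 of complex II, 7 of complex III, 17 of complex IV and 18 of complex V. The symbols choose the genes, and no measured value does, apart from the choice between rows of 1 gene. They also take in ATP5IF1, an inhibitor of ATP synthase, and COX7A2L, a supercomplex assembly factor. CYC1, a complex III subunit, falls outside the symbols and is counted below with the electron carriers. All 79 are called subunit genes below.

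Expression was measured on 18 single-colour Affymetrix arrays of HepG2, an established human hepatocellular carcinoma line. The pools had been stably transfected under G418 selection with a plasmid for thyroid hormone receptor TRβ1, with a plasmid for TRα1 or with the empty plasmid. They were made by combining 12, 6 and 11 clones for TRβ1, TRα1 and empty plasmid, so that each construct is 1 pool, and a difference between pools cannot be told apart from a difference between the clones that make them up. The hormone was T3, or triiodothyronine, at 100 nM, with the ethanol carrier as vehicle. Cells of each pool were exposed for 6 h while kept in 10% serum stripped of hormone, in 3 repeats that the labels call independent and biological. The 9 measured markers of hepatocytes and hepatoblasts stood between the 98.5th and the 99.98th percentile of all features. The 3 blood cell markers lay at or below the 24.4th and the 3 endothelial markers at or below the 29.1st. The 6 fibroblast and stellate markers ran from the 1.003rd to the 53.2nd (median 41.4), and the 5 muscle and adipose markers from the 22.9th to the 88.95th (median 32.6). HEG1 and the coenzyme Q binding protein gene COQ10A were taken to describe the hormone response. HEG1 on T3 minus vehicle averaged 1.64 ± 0.10 (SE, log2) over the 3 pools and COQ10A 1.64 ± 0.09. Each was higher on T3 in 9 of 9 same-numbered pairs (limma without a replicate term, adjusted p = 1.6e-07 and 5.0e-08). Both were chosen with earlier results of these data known, so they are not an independent check. THRA, the gene for TRα, was higher by 0.69 ± 0.10 in the TRα1 pool than in the empty plasmid pool (limma, adjusted p = 0.0014). THRB, the gene for TRβ, stood at 0.33 ± 0.10 in the TRβ1 pool relative to the empty plasmid pool, which did not pass without a replicate term (adjusted p = 0.403) and passed with it (adjusted p = 0.037).

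Complex I passes electrons from NADH to ubiquinone, complex II from succinate to ubiquinone, complex III on to cytochrome c, and complex IV to oxygen, while complex V makes ATP from the proton gradient that the proton pumps of this chain build. A small set of subunits is encoded by mitochondrial DNA, and all others, including every subunit of complex II, come from nuclear genes whose proteins are imported. In liver, thyroid hormone is known as a stimulus of mitochondrial respiration over days, acting both on nuclear genes and through coactivators such as PGC-1α (PPARGC1A).

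The level of a row depends on its probes, so levels are given for each gene by itself and are not set against each other. On the log2 scale the means over 18 arrays ran in complex I from 5.32 for NDUFS4, an accessory subunit of the peripheral arm, to 9.97 for NDUFS1, the largest core subunit. In complex II they ran from 8.58 for the membrane anchor SDHD to 10.3 for the flavoprotein SDHA, in complex III from 4.33 for UQCRB to 10.9 for the core protein UQCRC2, in complex IV from 2.80 for COX7B2 to 10.7 for COX6A1, and in complex V from 4.76 for ATP5MGL to 11.99 for ATP5F1B, the catalytic beta subunit. The rows of isoforms known from other tissues ranked among all features as follows: COX7B2 and COX6B2, known from testis, at the 4.96th and 10.8th, COX8C at the 17.5th, the lung isoform COX4I2 at the 34.0th and the muscle isoforms COX7A1 and COX6A2 at the 37.2nd and 54.9th.

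The arrays numbered 1 stood apart from those numbered 2 and 3 before any other difference in these genes. The replicate number is the only label that divides the samples within a group, and the labels do not say what it stands for. Between replicate 1 and the mean of replicates 2 and 3, in a limma fit with the 6 groups and the number, 67 of the 79 subunit genes were higher and 3 lower (adjusted p under 0.05), where 16.7% of all features were higher and 37% lower. The median subunit gene was higher by 0.85 on the log2 scale, and the median of all features lay at -0.11. Of the 79 genes, 47 were above 0.5, 30 above 1 and 6 above 2, against 7.43%, 2.34% and 0.248% of all 20546 features. For 60 subunit genes all 6 arrays numbered 1 lay above all 12 others, as they did for 8.53% of all features. Replicates 2 and 3 lay close to each other, with a median difference of -0.03 and 77 of 79 genes within 0.5.

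In complex I the 3 highest differences were those of NDUFB6, NDUFA1 and NDUFS4, which are accessory subunits. NDUFB6, an accessory subunit of the membrane arm, read 8.42 to 8.78 (median 8.57) in the 6 arrays numbered 1, against 4.75 to 5.65 (median 5.15) in the 12 numbered 2 and 3, which gave 3.42 ± 0.10 (SE) in the fit (limma, adjusted p = 1.4e-12). NDUFA1 read 11.05 to 11.20 in replicate 1, against 8.18 to 8.74 in replicates 2 and 3, a difference of 2.66 ± 0.08. NDUFS4 read 6.63 to 7.52 in replicate 1 and 4.06 to 4.82 in replicates 2 and 3, a difference of 2.498 ± 0.08. In these 3 genes the 2 sets of arrays did not overlap, whatever the pool or treatment. Other accessory subunits stood low, with NDUFB11 at 0.35, NDUFB5 at 0.21 and NDUFV3 at 0.087. The core subunits ran from 0.02 to 1.39: NDUFS1 differed by 0.02 ± 0.06, NDUFS8 by 0.12 ± 0.04, NDUFS3 by 0.31 ± 0.05, NDUFV1 by 0.35 ± 0.06, NDUFS7 by 0.66 ± 0.06 and NDUFV2 by 1.39 ± 0.06. The core subunits were grouped after their values were seen. The annotation gives NDUFS4 another row with a lower mean, and on that row the difference was -0.07. NDUFV2 had 1.19 on its other row.

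**Figure D1:**
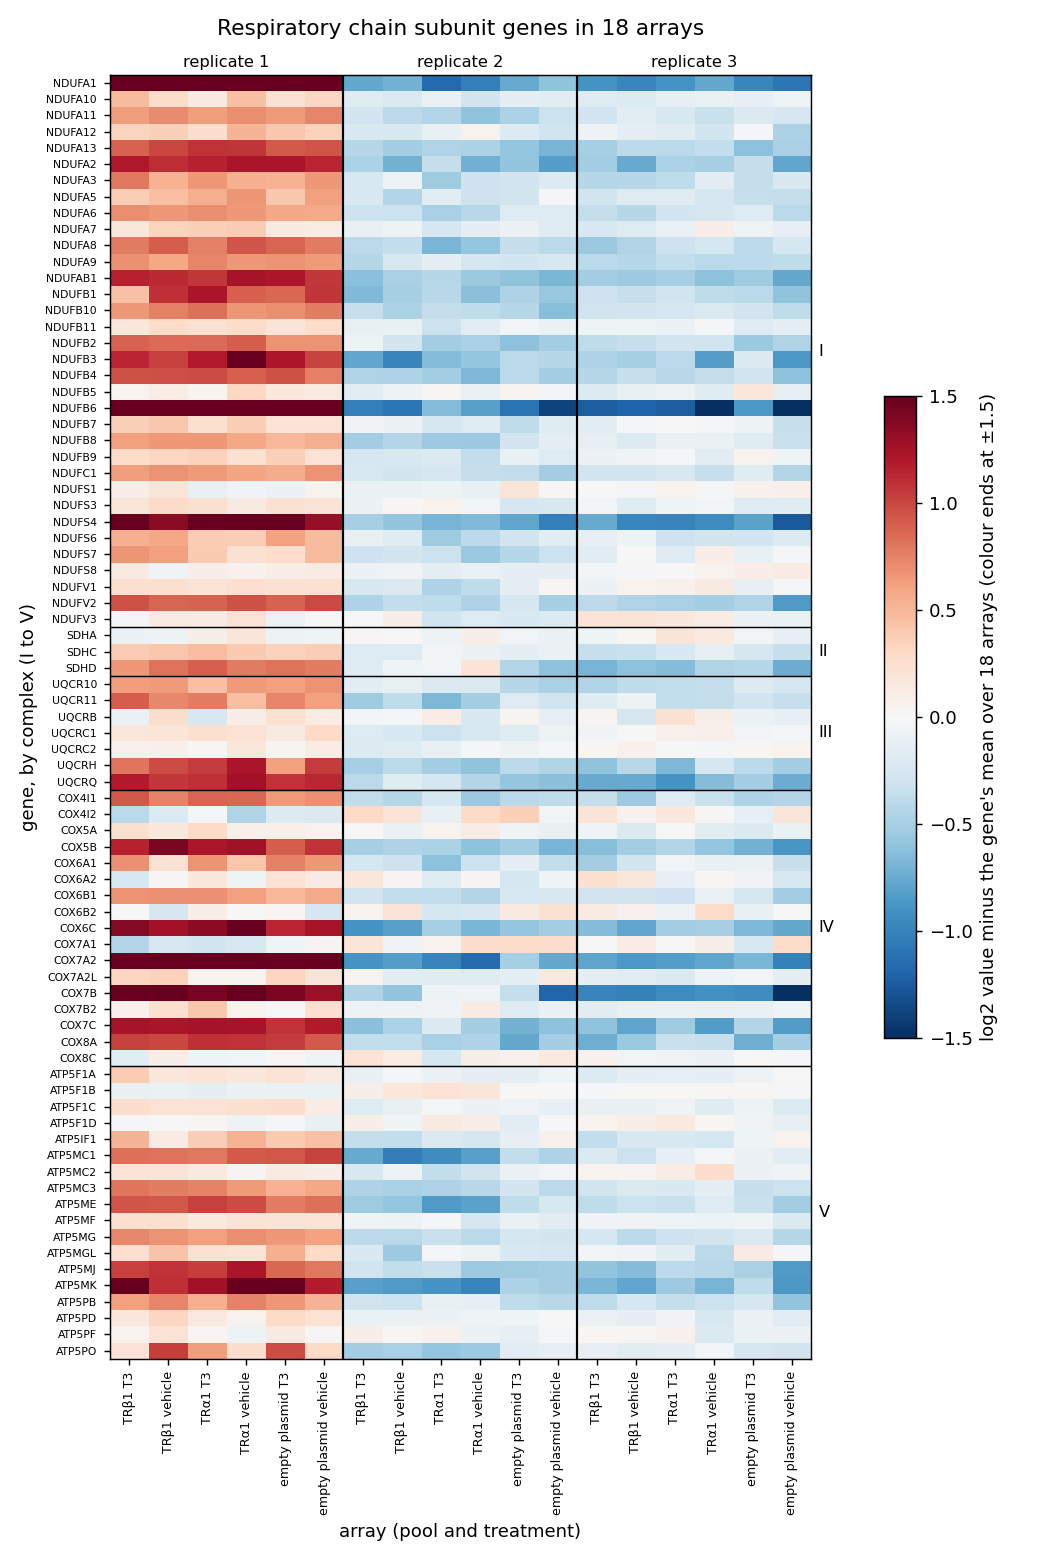
Heat map of the 79 subunit genes (rows, by complex I to V) in the 18 arrays (columns, by replicate number, then pool and treatment), where colour is the log2 value minus the gene's mean over the 18 arrays and ends at ±1.5. The 6 columns of replicate 1 are red for most rows in every pool and treatment, and SDHA, NDUFS1 and COX6A2 are among the rows that show little of it.

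The other complexes held high and low members as well. In complex II, SDHD differed by 1.18 ± 0.08 and SDHC by 0.59 ± 0.04, while SDHA, at 10.3 to 10.5 in replicate 1 and 10.2 to 10.5 in replicates 2 and 3, differed by -0.01 ± 0.05 (adjusted p = 0.908). Rows that the annotation shares between SDHA and its pseudogenes differed by 1.35 and 0.04. The other rows of SDHD and SDHC gave 0.32 and 0.26, and the rows used for SDHD, SDHC, NDUFV2 and ATP5MK lie in the platform's numbering among features of another chromosome than the gene's own. In complex III the small subunits UQCRQ and UQCRH differed by 1.70 ± 0.07 and 1.43 ± 0.08, and the core proteins UQCRC1 and UQCRC2 by 0.31 ± 0.05 and 0.12 ± 0.04. In complex IV, COX7A2 read 10.5 to 10.7 in replicate 1, against 7.78 to 8.44 in replicates 2 and 3, a difference of 2.52 ± 0.08. Of the isoform pairs, COX4I1 was higher by 1.18 ± 0.05 and COX4I2 lower, at -0.37 ± 0.09, in replicate 1. COX7A1 was lower as well, at -0.31 ± 0.07, and COX8A (1.55 ± 0.06), COX6B1 (0.93 ± 0.06) and COX6A1 (0.85 ± 0.08) were higher, while COX8C, COX6B2 and COX6A2 did not pass. In complex V the difference was 2.12 ± 0.09 for ATP5MK, a small subunit of the membrane part, and 1.41 on its other row. Among the subunits of the F1 part, which holds the catalytic sites, it was -0.16 ± 0.04 for ATP5F1B, 0.31 ± 0.05 for ATP5F1A, 0.33 ± 0.04 for ATP5F1C and -0.05 ± 0.05 for ATP5F1D, the last without passing. The 3 genes for the same c-ring protein differed by 1.33 ± 0.07 (ATP5MC1), 0.20 ± 0.07 (ATP5MC2) and 1.02 ± 0.05 (ATP5MC3).

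The median differences by complex were 0.93, 0.59, 0.91, 0.85 and 0.54 for complexes I to V. That of complex II is the SDHC value, from a row among features of another chromosome, and the other SDHC row gave 0.26. Genes with related roles did not all move alike: 62 of 73 mitochondrial ribosomal protein genes were higher and 2 lower (median 0.56), 33 of 42 assembly factor genes were higher (median 0.47), and 15 of 25 genes for electron carriers and other inner membrane partners were higher and 5 lower (median 0.24). Of 16 genes for TCA cycle enzymes 6 were higher and 5 lower, and of 22 regulators of respiratory genes and mitochondrial DNA 7 were higher and 5 lower. Among those regulators TFAM, which packages mitochondrial DNA, was higher by 0.78 ± 0.06, PPARGC1A was lower, at -0.39 ± 0.05, and NRF1, GABPA, ESRRA and PPARGC1B did not pass. Among genes of like level the share was also higher: between 8 and 10 on the log2 scale, 43 of 45 subunit genes were higher in replicate 1, against 31.5% of features. It was 15 of 18 between 6 and 8 (22.7% of features) and 6 of 8 over 10 (33.6%). Between 4 and 6 it was 2 of 5 (7.63%), and under 4 it was 1 of 3 (4.27%). The subunit median was 0.94 between 8 and 10, 0.98 between 6 and 8 and 0.30 over 10. It was 0.09 between 4 and 6 and -0.06 under 4. Among genes that span under 5 kb, 15 of 19 subunit genes were higher, against 18.6% of features. After cyclic loess scaling of the arrays the subunit median was 0.92, with 69 higher and 3 lower, and the median of all features -0.02. RNA quality, culture or hybridisation differences between the repeats were not tested.

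The replicate number accounted for a median of 92.0% of a subunit gene's variance over the 18 arrays, the pool for 1.33%, T3 for 0.253% and their combination for 0.578%. Over all features these medians were 37.3%, 8.06%, 1.81% and 3.20%. The number held over 50% of the variance of 70 subunit genes, which is 88.6%, and of 37.1% of all features. The exceptions were SDHA, for which the number held 2.81% and the pool 62.4%, COX6A2, NDUFS1, UQCRB, COX6B2, ATP5F1D, COX8C, ATP5PF and NDUFV3. A test that leaves the number out therefore carries this spread as error: the median standard error of a subunit gene's T3 difference over the 3 pools was 0.226 without the number and 0.0538 with it as a block. Counts of subunit genes past the threshold are given from both fits for each comparison of T3 or pools. Some results of single genes and of genes with related roles are given with the block only.

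**Figure D2:**
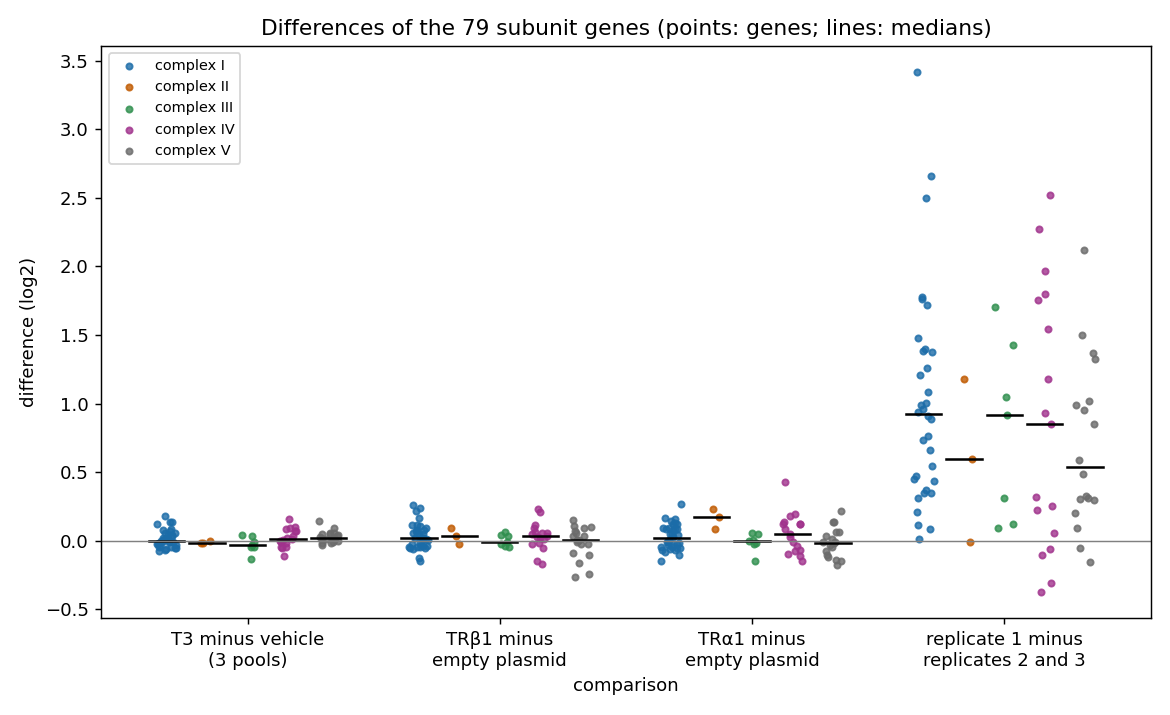
Differences of the 79 subunit genes (points, log2 axis) by complex (colours, with medians as lines) for T3 minus vehicle over 3 pools, TRβ1 minus empty plasmid, TRα1 minus empty plasmid and replicate 1 minus replicates 2 and 3. The first 3 sets lie between -0.27 and 0.43, and the replicate differences reach 3.42.

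The comparison of T3 with vehicle asks whether hormone changed the level of subunit mRNA within 6 h, in cells with added receptor and in cells without. Over the 3 pools no subunit gene passed (limma, 0 of 79), where 0.423% of all features did. With the replicate block 0 of 79 passed as well, where 1.69% of all features did. At an unadjusted p under 0.05 there were 0 subunit genes without the block and 1 with it, against 3.82% and 10.3% of all features. The median T3 difference of the subunit genes was 0.01 on the log2 scale, with 43 genes above 0 and 36 below, and the median of all features was -0.01. With the block, every 95% interval of the 79 lay within -0.29 to 0.34. Without it, 39 of the 79 intervals lay within ±0.5, which is 1.41-fold, and the widest reached from -1.62 to 1.86.

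The gene with the highest T3 difference was NDUFA2, an accessory subunit of complex I. It read 9.47, 7.80 and 7.75 in replicates 1, 2 and 3 of the TRβ1 pool on T3, against 9.38, 7.56 and 7.51 on vehicle. In the TRα1 pool it read 9.43, 7.92 and 7.79 on T3, against 9.50, 7.55 and 7.78 on vehicle, and in the empty plasmid pool 9.50, 7.68 and 7.91 on T3, against 9.42, 7.44 and 7.50 on vehicle. The T3 value was the higher in 8 of 9 same-numbered pairs, while the 2 sets of arrays overlapped within each pool. The mean difference was 0.18 ± 0.05 (SE with the block), and it did not pass (limma, adjusted p = 0.148 with the block and 0.99999 without). The lowest of complex I was NDUFV1, the flavoprotein that oxidises NADH, at -0.07 ± 0.06. It was the single subunit gene that was lower on T3 in 9 of 9 same-numbered pairs, a pattern that 1.8% of all features showed. No subunit gene was higher in 9 of 9, as 2.04% of features were.

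In the other complexes the differences were of similar size. In complex II they were -0.0008 ± 0.04 for SDHC, -0.02 ± 0.04 for SDHA and -0.02 ± 0.08 for SDHD. In complex III they ran from -0.13 ± 0.07 for UQCRH, the hinge protein, to 0.04 ± 0.08 for UQCRB. In complex IV they ran from -0.11 ± 0.07 for COX7A1 to 0.16 ± 0.08 for COX7B, and in complex V from -0.03 ± 0.06 for ATP5MC2 to 0.15 ± 0.09 for ATP5MK. None of these passed, with adjusted p between 0.525 and 0.998 in limma with the block.

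**Figure D3:**
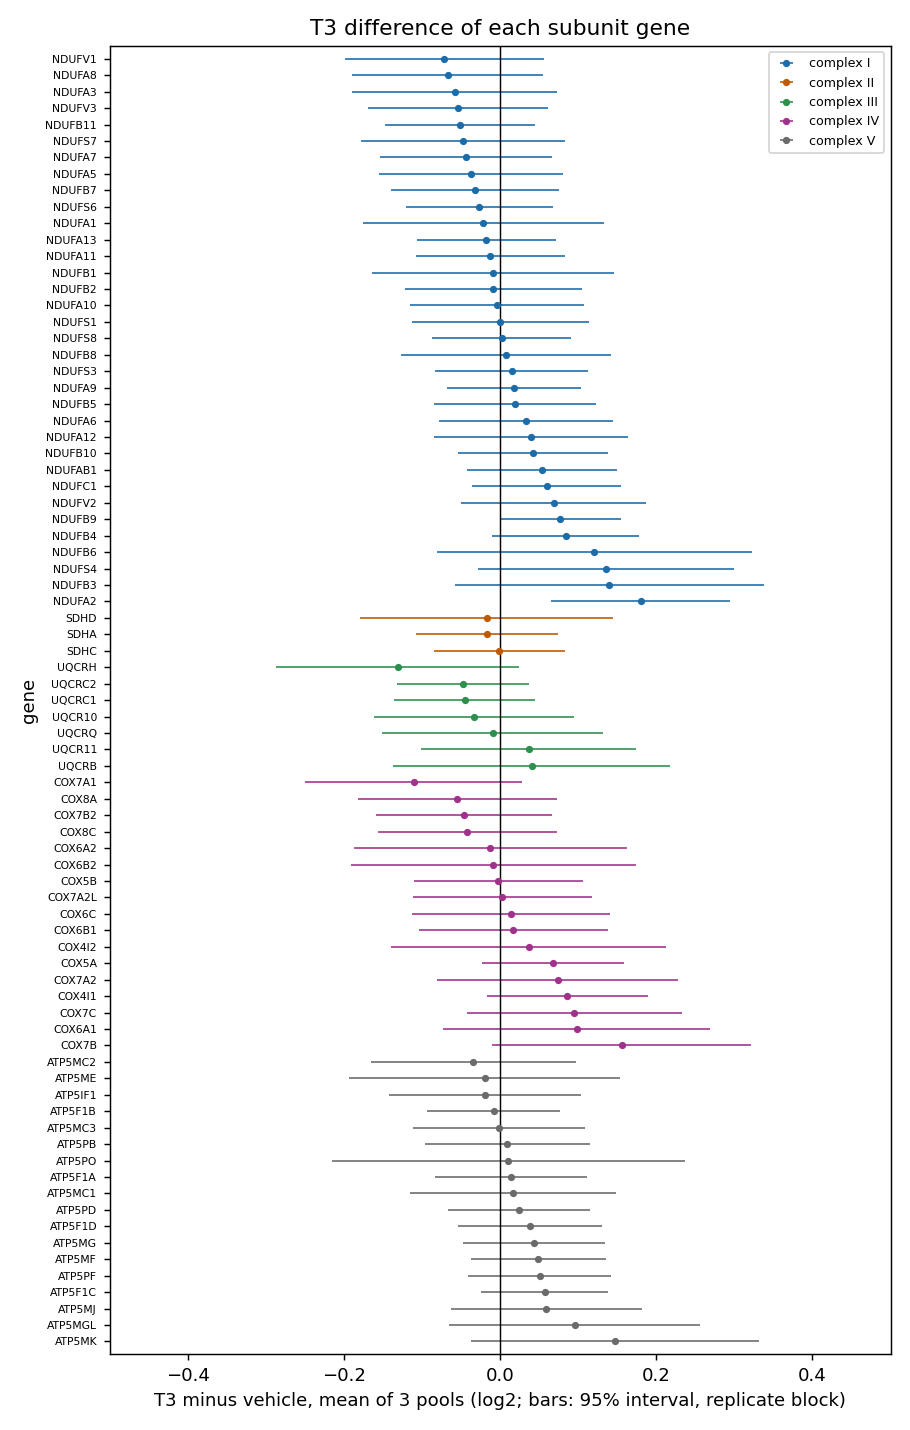
T3 minus vehicle averaged over the 3 pools (log2, horizontal) for each of the 79 subunit genes, coloured by complex and ordered within it, with 95% intervals from the fit with the replicate block. The points lie between -0.13 and 0.18, and the interval of NDUFA2 (0.066 to 0.295, not adjusted for the number of genes) is the one that leaves out 0.

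By pool, no subunit gene passed on T3 in the TRβ1, TRα1 or empty plasmid pool, with or without the block. Of all features 0.073%, 0.131% and 0.00973% passed in these pools without the block, and 0.477%, 0.667% and 0.0973% with it. The subunit medians were -0.01, -0.004 and 0.02. At an unadjusted p under 0.05 there were 1, 2 and 4 subunit genes with the block in limma, where 6.18%, 6.79% and 5.95% of all features were. Without it there were 0 in each pool, against 2.22%, 2.55% and 2.03% of all features. The highest single value was COX7B in the empty plasmid pool at 0.52 ± 0.13 (limma with the block, adjusted p = 0.373), and in the TRβ1 pool it was NDUFS4 at 0.31 ± 0.13 (adjusted p = 0.717). In the TRα1 pool NDUFS4 stood at -0.20 ± 0.13. With the block 75, 79 and 73 of the 79 intervals lay within ±0.5 in the TRβ1, TRα1 and empty plasmid pools.

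The difference between the responses was also tested directly. For TRβ1 minus TRα1, TRβ1 minus empty plasmid and TRα1 minus empty plasmid, 0 of 79 subunit genes passed without or with the block. At an unadjusted p under 0.05 there were 0 in each without the block, against 1.09%, 1.34% and 1.39% of all features, and 2 in each with it, against 3.01%, 4.06% and 3.75%. Of all features 0% passed in each without the block, and 0%, 0% and 0.0292% with it. COX7B had the largest gap, where the T3 difference in the TRα1 pool minus that in the empty plasmid pool was -0.67 ± 0.19 (limma with the block, adjusted p = 0.907).

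Other genes of the pathway moved little on T3. With the block, 1 of 22 regulators passed and was lower, 1 of 16 TCA cycle genes and 1 of 42 assembly factor genes passed and were higher, and 0 of 73 ribosomal and 0 of 25 electron carrier and partner genes did, beside the 1.69% of all features. PPARGC1A, the gene for PGC-1α, read 5.81 to 6.66 (median 6.22) in the 9 T3 arrays and 6.11 to 6.82 (median 6.45) in the 9 vehicle arrays, and fell by 0.22 ± 0.05, lower in 8 of 9 same-numbered pairs (limma with the block, adjusted p = 0.022, and 0.99999 without). CS, citrate synthase, read 9.74 to 10.3 on T3 and 9.32 to 9.85 on vehicle, and rose by 0.33 ± 0.07, higher in 9 of 9 pairs (adjusted p = 0.015 with the block and 0.190 without). TACO1, the translational activator of the mitochondrially encoded COX1, rose by 0.19 ± 0.04, also in 9 of 9 pairs (adjusted p = 0.022 with the block and 0.570 without). GABPA, NRF1, ESRRA, TFAM and PPARGC1B did not pass, at 0.18 ± 0.06, -0.03 ± 0.06, -0.05 ± 0.06, 0.01 ± 0.06 and -0.004 ± 0.06.

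The comparison of pools, averaged over T3 and vehicle, asks whether added receptor changed subunit mRNA. Without the block no subunit gene passed between TRβ1 and TRα1, TRβ1 and empty plasmid, or TRα1 and empty plasmid, where 0.35%, 0.38% and 1.38% of all features did. At an unadjusted p under 0.05 there were 1, 1 and 2 subunit genes without the block, against 4.48%, 5.97% and 8.48% of all features, and 5, 9 and 16 with it, against 11.9%, 17% and 21%. With the block 1, 0 and 1 subunit genes passed, where 2.2%, 3.61% and 7.54% of all features did, so that the share among the subunit genes was below that of all features in each. The subunit medians were -0.01, 0.02 and 0.01.

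The gene that passed between the TRα1 and empty plasmid pools was COX7B, a small membrane subunit of complex IV. In the TRα1 pool it read 8.91, 7.41 and 6.54 on T3 in replicates 1, 2 and 3, and 9.29, 7.42 and 6.57 on vehicle. In the empty plasmid pool it read 8.89, 7.13 and 6.55 on T3, and 8.78, 6.30 and 5.94 on vehicle. The TRα1 value was the higher in 5 of 6 pairs of the same number and treatment, and the low values were the empty plasmid vehicle arrays of replicates 2 and 3. The difference was 0.43 ± 0.10 (SE with the block, 95% interval 0.23 to 0.63, adjusted p = 0.012 in limma with the block and 0.986 without). It stood at 0.76 ± 0.13 on vehicle alone (adjusted p = 0.0067 with the block, where 2.07% of all features passed) and at 0.10 ± 0.13 on T3 alone (adjusted p = 0.819). The TRβ1 pool read 9.12, 7.02 and 6.49 on T3 and 8.99, 6.89 and 6.47 on vehicle, a difference from empty plasmid of 0.23 ± 0.10 (adjusted p = 0.220 with the block).

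The gene that passed between the TRβ1 and TRα1 pools was NDUFS6, a zinc-binding accessory subunit of complex I. In the TRβ1 pool it read 9.65, 9.02 and 8.997 on T3 and 9.70, 8.95 and 9.05 on vehicle, against 9.51, 8.59 and 8.82 on T3 and 9.49, 8.73 and 8.85 on vehicle in the TRα1 pool. The TRβ1 value was the higher in 6 of 6 pairs, and within each replicate number both TRβ1 arrays lay above both TRα1 arrays. The difference was 0.23 ± 0.05 (95% interval 0.12 to 0.34, adjusted p = 0.035 in limma with the block and 0.9999 without). With single arrays left out, the call was kept in 7 of 18 fits, those without any 1 of the 6 empty plasmid arrays and the one without TRα1 on T3 of replicate 1, and adjusted p ran from 0.028 to 0.108. Against empty plasmid, at 9.72, 8.85 and 8.84 on T3 and 9.60, 8.96 and 8.92 on vehicle, NDUFS6 stood at 0.08 ± 0.05 in the TRβ1 pool and -0.15 ± 0.05 in the TRα1 pool, and neither passed.

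**Figure D4:**
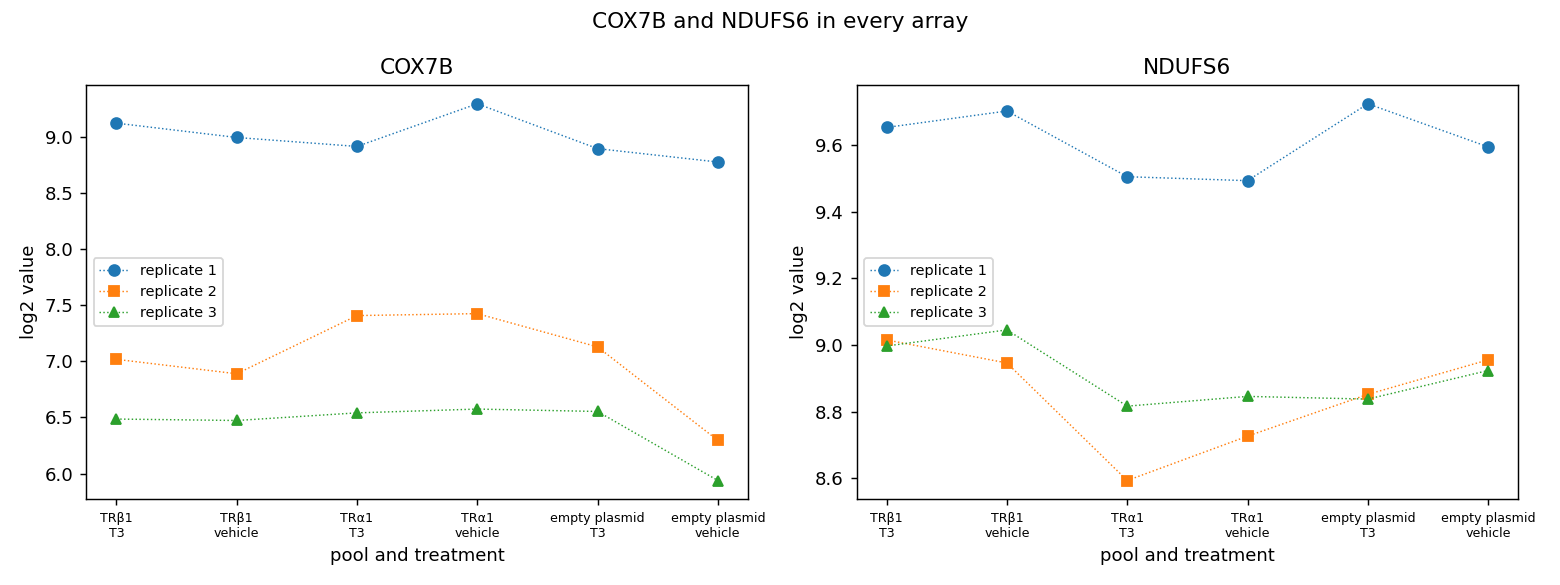
Log2 values of COX7B (left) and NDUFS6 (right) in each of the 18 arrays by pool and treatment, with the 3 replicate numbers as symbols joined by dotted lines. COX7B is lowest in the empty plasmid vehicle arrays of replicates 2 and 3 (6.30 and 5.94), and NDUFS6 is lower in the TRα1 pool than in the TRβ1 pool at each number.

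SDHA was the subunit gene whose variance followed the pool most. It read 10.4, 10.3 and 10.5 on T3 and 10.5, 10.4 and 10.5 on vehicle in the TRα1 pool, against 10.3 in all 3 T3 arrays and 10.3, 10.3 and 10.2 on vehicle in the empty plasmid pool. The difference of 0.17 ± 0.05 did not pass (limma, adjusted p = 0.057 with the block and 0.308 without). The rows shared between SDHA and its pseudogenes stood at 0.04 and 0.11 (limma with the block, adjusted p = 0.783 and 0.199). The other complex II genes stood at 0.23 ± 0.09 (SDHD) and 0.09 ± 0.05 (SDHC) between TRα1 and empty plasmid. Between TRβ1 and TRα1 all 3 were below 0, at -0.14 ± 0.05 (SDHA), -0.14 ± 0.09 (SDHD) and -0.11 ± 0.05 (SDHC), and none passed.

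The highest and lowest genes of the other complexes did not pass. Between TRα1 and empty plasmid they were NDUFS4 (0.27 ± 0.09), UQCRQ (0.06 ± 0.08), UQCR11 (-0.15 ± 0.08), COX7A2L (-0.15 ± 0.07), ATP5MJ (0.22 ± 0.07) and ATP5MC1 (-0.18 ± 0.08). Between TRβ1 and empty plasmid they were NDUFS4 (0.26 ± 0.09), NDUFB3 (-0.15 ± 0.11), UQCRQ (0.07 ± 0.08), UQCRC2 (-0.05 ± 0.05), COX7A1 (-0.17 ± 0.08), ATP5MJ (0.15 ± 0.07) and ATP5MC1 (-0.27 ± 0.08, adjusted p = 0.070 with the block). Both comparisons use the same empty plasmid arrays. Between TRβ1 and TRα1 they were NDUFB3 (-0.14 ± 0.11), UQCR11 (0.19 ± 0.08), UQCRH (-0.06 ± 0.09), COX7A2L (0.13 ± 0.07), COX7B (-0.20 ± 0.10), ATP5PF (0.11 ± 0.05) and ATP5IF1 (-0.10 ± 0.07).

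The T3 arrays and the vehicle arrays give each pool comparison once from samples of their own. Across the 79 genes, the difference on T3 and the difference on vehicle correlated at r = 0.22 for TRβ1 minus TRα1, 0.39 for TRβ1 minus empty plasmid and 0.38 for TRα1 minus empty plasmid, and had the same sign in 53, 51 and 55 genes. Over all features the correlations were 0.37, 0.43 and 0.59, and 60.9%, 62.0% and 65.5% of features had the same sign. Genes are not independent replicates, and same-numbered arrays share what their number stands for.

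**Figure D5:**
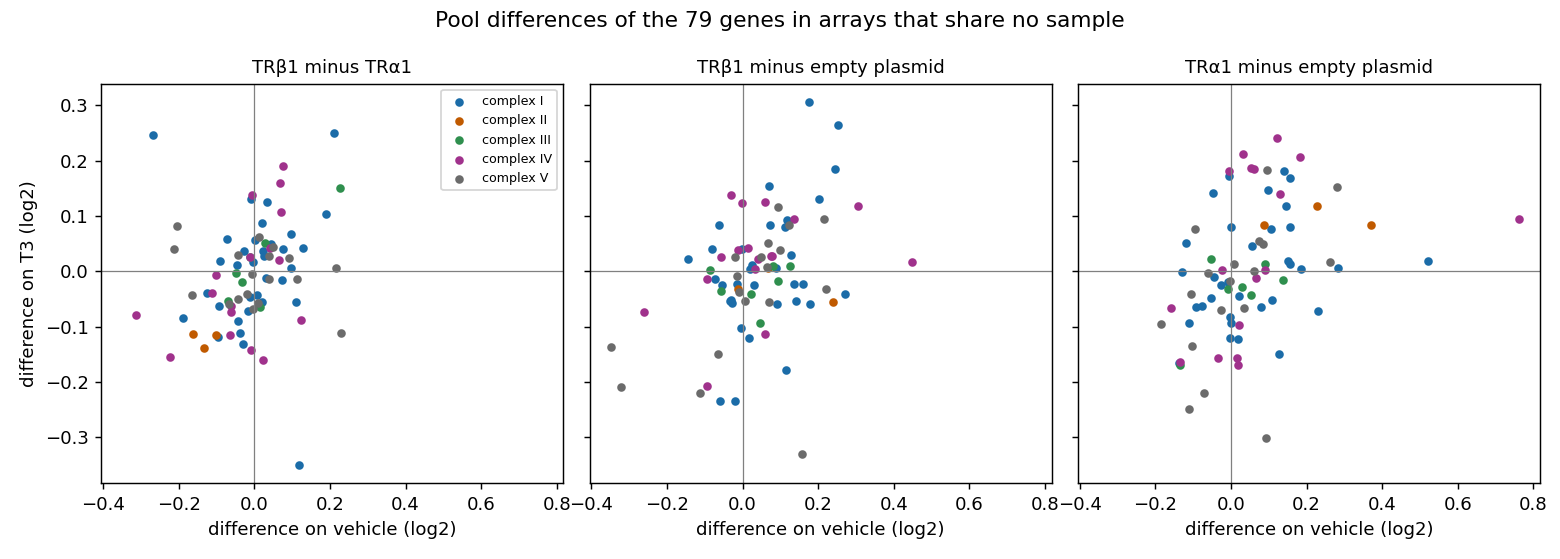
Pool difference on T3 (vertical, log2) against the same difference on vehicle (horizontal, log2) for the 79 subunit genes, coloured by complex, in 3 panels. Most points lie within 0.3 of 0 on both axes, and COX7B at 0.76 on vehicle and 0.10 on T3 stands out in the TRα1 panel.

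Among the related genes, with the block, 1 of 42 assembly factor genes was higher in TRβ1 than in TRα1, where 2.2% of all features passed. This was NUBPL, which inserts iron-sulfur clusters into complex I, at 0.44 ± 0.06 (limma, adjusted p = 3.9e-04 with the block and 0.0054 without). NUBPL read 8.04, 7.98 and 7.99 on T3 and 8.11, 8.02 and 8.14 on vehicle in the TRβ1 pool, against 7.58, 7.54 and 7.56 on T3 and 7.58, 7.66 and 7.71 on vehicle in the TRα1 pool, without overlap. It was lower in TRα1 than in empty plasmid, at -0.32 ± 0.06 (adjusted p = 0.0019 with the block and 0.022 without). COA7, a complex IV assembly factor, was lower than in empty plasmid in both receptor pools, at -0.27 ± 0.07 in TRβ1 and -0.31 ± 0.07 in TRα1 (adjusted p = 0.040 and 0.012 with the block). Of 73 ribosomal protein genes, MRPL20 and MRPL37 were lower in TRβ1 and MRPL20, MRPL37 and MRPL52 lower in TRα1, each against empty plasmid. With the block 3.61% of all features passed between TRβ1 and empty plasmid, and 7.54% between TRα1 and empty plasmid. PPARGC1A was higher in TRα1 than in empty plasmid by 0.21 ± 0.06 (adjusted p = 0.035 with the block), LRPPRC, which stabilises mitochondrial mRNAs, was lower at -0.22 ± 0.06, and IDH3B of the TCA cycle was higher by 0.19 ± 0.05. Some hepatocyte markers differed in the same comparison, where 7.54% of all features passed with the block. Of 9, APOA1 was higher, and TTR, AFP and ALB were lower in TRα1 than in empty plasmid, at -0.70 ± 0.05, -0.31 ± 0.05 and -0.21 ± 0.05, and their part in the subunit differences was not tested. In bulk samples fewer cells of a type and less RNA per cell cannot be told apart.

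Promoter windows of 250 bases before to 50 after the start, from RefSeq (GRCh38.p14), were found for 67 of the 79 genes and searched on both strands for 4 motifs that regulators of respiratory genes are known to bind. An NRF1 site (GCGCATGCG) was in 10 of the 67 (14.9%, against 2.10% of all 27305 promoter windows and 2.76% of the 15843 of protein-coding genes), and the full palindrome, with this motif on both strands 1 base apart, in 4 (5.97%, against 1.36%). An ETS site as bound by GABPA (CCGGAAG) was in 19 (28.4%, against 10.7% of all and 14.2% of coding windows), and a YY1 site (AAGATGGCG) in 7 (10.4%, against 1.85% and 2.74%). A hexamer half-site of thyroid hormone receptors (AGGTCA) was in 16 (23.9%, against 13.9% and 11.7%). None of the NRF1, ETS and YY1 motifs was in 37 of the 67. The NRF1 pattern was shortened from the full palindrome after its counts were seen. Shown are the 250 bases before the start, on the plus strand. They are those of the 2 genes that passed between pools and of 2 genes with matches, COX5B and SDHD. COX5B and SDHD differed by 1.76 and 1.18 between replicate 1 and the others. The SDHD value is from a row among features of chromosome 1, and its row among chromosome 11 features gave 0.32. Capitals mark a match.
COX7B: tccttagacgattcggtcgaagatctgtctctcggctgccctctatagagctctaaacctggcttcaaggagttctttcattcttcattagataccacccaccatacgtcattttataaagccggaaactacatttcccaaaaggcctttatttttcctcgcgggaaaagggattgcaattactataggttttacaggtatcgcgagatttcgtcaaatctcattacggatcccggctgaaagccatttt
NDUFS6: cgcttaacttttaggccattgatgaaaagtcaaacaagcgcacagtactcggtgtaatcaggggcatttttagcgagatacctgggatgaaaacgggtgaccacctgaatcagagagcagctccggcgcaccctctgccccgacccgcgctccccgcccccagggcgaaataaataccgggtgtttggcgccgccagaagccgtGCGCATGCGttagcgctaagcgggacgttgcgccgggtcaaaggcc
SDHD: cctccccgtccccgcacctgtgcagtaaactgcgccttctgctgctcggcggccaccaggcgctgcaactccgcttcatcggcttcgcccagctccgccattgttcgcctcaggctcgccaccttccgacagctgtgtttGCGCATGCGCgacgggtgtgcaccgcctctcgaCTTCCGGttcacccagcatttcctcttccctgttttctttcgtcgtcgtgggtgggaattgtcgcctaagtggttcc
COX5B: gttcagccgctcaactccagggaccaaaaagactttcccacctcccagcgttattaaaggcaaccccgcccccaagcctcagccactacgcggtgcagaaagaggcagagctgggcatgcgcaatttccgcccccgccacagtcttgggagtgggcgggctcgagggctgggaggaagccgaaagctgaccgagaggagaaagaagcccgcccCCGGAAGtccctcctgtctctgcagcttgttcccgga
COX7B lies at chrX:77899218-77899467, NDUFS6 at chr5:1801157-1801406, SDHD at chr11:112086623-112086872 and COX5B at chr2:97645812-97646061 by these windows. The COX7B stretch holds none of the 4 motifs, NDUFS6 holds 1 NRF1 match, SDHD the NRF1 palindrome and 1 ETS match, and COX5B 1 ETS match before the start. A match is a description of letters and not of binding.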

How the data were processed

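RNA from 18 HepG2 samples was hybridised to Affymetrix Gene ST arrays from 200 ng of total RNA each. The deposited values are log2 expression per feature. The submitters' processing notes name RMA and R 2.7.1. RMA is meant to equalise the distribution of the arrays, so each value is relative to the others on its array. The medians of the deposited arrays were not equal. They lay between 5.31 and 5.37 in the 6 arrays numbered 1 and between 5.41 and 5.49 in the 12 others. There is no read depth for arrays, so precision is limited by having 3 of them in a group. The genome build of the array design is not given in the sources used here.

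Features were named through the platform annotation: 20546 of 32321 had a symbol, and 1388 of these named several genes. Subunit genes came from 85 single-gene rows, and 6 genes had more than 1. Features of several genes were not used for members, and ATP5F1E, NDUFC2, NDUFS5, SDHB, UQCRFS1 and UQCRHL were not analysed here. limma 3.58.1 in R 4.3.3 was fitted to all features with a symbol, with the 6 groups and 1 variance per feature, and Benjamini-Hochberg adjustment over all 20546 at a threshold of 0.05. The difference between replicate numbers came from the groups plus the number. The labels give 3 independent biological repeats, and no label names separate cultures beyond that.

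The replicate numbers were checked as pairs: with each group's mean removed, arrays of the same number in different groups correlated at 0.26 to 0.82 in all 45 cases, each above 0.1, so the fit with the number as a block is given beside each result. The members, gene lists and tests were chosen with earlier results of these data known. Named were the genes past the threshold, the highest and lowest difference and level of each complex, the complex II genes, isoform pairs, 6 regulators, and HEG1 and COQ10A. Other genes, THRA and THRB among them, were named outside this rule after their values were seen. NDUFA4 and NDUFA4L2 are now named COXFA4 and COXFA4L2 and fall outside the symbols used. Alternatives were array weights, an intensity trend, all features, bright features, cyclic loess, fewer arrays, all rows of a gene, and each array left out. The script was tested on simulated data.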

Additional observations from a re-analysis of the deposited data

How the results depend on the processing

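No subunit gene passed for T3, in any pool, over the pools or between responses, under any of the alternatives run. Taking the shared replicate number as a block (pairing the arrays) moved the count of subunit genes past the threshold to 1 between TRα1 and empty plasmid and to 1 between TRβ1 and TRα1, each against 0 without it, and its construction removes the spread between numbers from the error. All further settings with the block were chosen after seeing the data. Between TRα1 and empty plasmid, the block gave 1 on vehicle arrays alone, 1 on arrays numbered 2 and 3, 4 with array weights, 2 with cyclic loess and 1 to 2 with single arrays left out. It gave 2 without replicate 2 of TRα1 on T3 or on vehicle or of empty plasmid on T3. Between TRβ1 and TRα1 it gave 1 with array weights and 0 to 1 with single arrays left out. Between TRβ1 and empty plasmid it gave 1 on arrays numbered 2 and 3 and 0 to 1 with single arrays left out, with 1 without replicate 1 or 3 of TRβ1 on T3 or replicate 1 of either empty plasmid group. Between 67 and 71 genes, both directions together, differed in replicate 1 with single arrays left out.

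Some differences turned in sign, none of them past the threshold where they did, and the cause was not tested. With array weights T3 gave 0.012 for SDHC and 0.0070 for SDHD. UQCRQ between TRα1 and empty plasmid was -0.017 on T3 arrays alone in both fits and -0.014 with the block and array weights. SDHD between TRβ1 and empty plasmid was -0.055 on T3 arrays alone in both fits, and UQCRH between TRβ1 and TRα1 0.033 on arrays numbered 2 and 3 in both fits. Leaving out single arrays without the block, which unbalances the replicate numbers, gave the ranges that follow. Between TRβ1 and TRα1 they were ATP5IF1 -0.25 to 0.026, COX7B -0.59 to 0.19, NDUFB3 -0.43 to 0.23, UQCR11 -0.021 to 0.40 and UQCRH -0.29 to 0.22. Between TRβ1 and empty plasmid they were ATP5MJ -0.11 to 0.40, COX7B -0.16 to 0.68, NDUFB3 -0.44 to 0.13, NDUFS4 -0.17 to 0.67, SDHC -0.14 to 0.077, SDHD -0.10 to 0.33 and UQCRQ -0.23 to 0.37. Between TRα1 and empty plasmid they were ATP5MC1 -0.40 to 0.041, ATP5MJ -0.067 to 0.46, NDUFS4 -0.23 to 0.68, SDHC -0.012 to 0.19, UQCR11 -0.37 to 0.012 and UQCRQ -0.24 to 0.36. For T3 they were ATP5MC2 -0.085 to 0.021, ATP5MK -0.11 to 0.44, COX7B -0.11 to 0.45, NDUFA2 -0.0090 to 0.40, SDHC -0.073 to 0.075, SDHD -0.16 to 0.14, UQCRB -0.0015 to 0.086 and UQCRH -0.31 to 0.053. With the block, single arrays left out turned T3 differences to 0.0071 for ATP5MC2; to 0.00085, 0.0029, 0.0033, 0.0034, 0.0055, 0.0099, 0.011 and 0.016 for SDHC; to 0.0075, 0.018, 0.027 and 0.030 for SDHD; to -0.0063 and -0.0037 for UQCRB. Each group has 3 arrays and each construct 1 pool of clones, and no detection call was used, so signal over background is not known for rows at low percentiles.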

Other observations

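A feature that the annotation assigns to both NDUFC2, a complex I subunit, and its read-through gene with KCTD14 was left out of the 79 because it names 2 genes. It was higher in TRβ1 than in TRα1 by 0.24 (limma with the replicate block, adjusted p = 0.032) and lower in TRα1 than in empty plasmid, at -0.32 (adjusted p = 0.0020). Without the block neither difference passed (limma, adjusted p = 0.9999 and 0.914). With the block 2.2% and 7.54% of all features passed in these comparisons. No other feature of several genes that names a subunit passed between pools. This feature was singled out after its values were seen. The genes now named COXFA4 and COXFA4L2, formerly NDUFA4 and its paralog, differed by 0.44 and -0.33 between replicate 1 and the others, and by 0.01 and -0.07 on T3.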
